A study of Mus musculus with 10 samples.

Results

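The 37 genes described here encode cohesin, condensin, the SMC5/6 complex, type II topoisomerases and the regulators that load, protect and cleave these complexes on chromosomes, out of 21774 protein-coding mouse genes. They were chosen by function, with earlier results of these data known, and each symbol, or a synonym that belongs to a single gene, was looked up in the lists of transcription start sites (TSSs) enriched for ARID2 at P28 and at P28.5. ARID2 is a subunit found in the PBAF form of the SWI/SNF chromatin remodeler, and it was mapped by CUT&RUN, which sequences the fragments that an antibody-tethered nuclease releases from chromatin. The cells were spermatogenic cells from testes of CD1 mice, for which the labels name no mutant allele, and each age had 2 ARID2 libraries, 2 BRG1 libraries made with different antibodies to the remodeler's ATPase and 1 control library without primary antibody. All of these animals had received the retinoic acid synthesis inhibitor WIN 18,446 from P1 to P10 and retinoic acid at P11, so that spermatogenesis proceeded in synchrony, and P28 and P28.5 fell 17 and 17.5 days after retinoic acid. The preparations were enriched for pachytene and diplotene spermatocytes and for metaphase spermatocytes, not sorted to a single cell type.

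The lists name the TSSs of the ARID2-enriched k-means cluster (Cl-1), each as a genomic position with a gene symbol. They held 11553 lines with 4095 gene names at P28 and 8514 lines with 2707 gene names at P28.5. The authors averaged the replicates before clustering, so neither a signal level nor a spread between replicates exists for any gene here, and membership in Cl-1 is given as a description without a test. A gene absent from Cl-1 was in another cluster or not among the clustered TSSs, and its ARID2 level is not known from these lists. A list of TSSs does not measure expression, so the labelled cell type could be checked only by membership. Against 16.8% and 11.6% of all protein-coding genes named at P28 and P28.5, marker sets of 4 or 5 genes bear little on the cell type. Among them, 0 of 4 Leydig cell and 0 of 5 spermatogonial genes were named at either age, while 1 of 5 Sertoli cell genes (Cldn11) and 1 of 5 round spermatid genes (Tnp1) were named at P28, by positions that lay 52934 and 825 bp from their starts.

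Cohesin is a ring of a pair of SMC proteins closed by a kleisin and bound by a STAG subunit, and it holds sister chromatids together until separase cuts the kleisin. Male meiosis adds its own subunits, SMC1B, RAD21L, REC8 and STAG3, and shugoshin with MEIKIN protects cohesin at the centromere through the first division so that sisters part only at the second. Condensin I and II compact chromosomes for segregation, SMC5/6 acts on joint molecules between chromatids, and topoisomerase II untangles them.

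Of the 37 genes, 16 (43.2%) were named in the P28 list, against 16.8% of all protein-coding genes, and 15 (40.5%) were named in the P28.5 list, against 11.6%. The genes named at both ages numbered 12, against 8.48% of all protein-coding genes, and those named at either age 19, against 19.9%. The remaining 18 were named at neither age. Of the 16 genes of the earlier list 12 were also in the later one, where 50.5% of all protein-coding genes of the earlier list were, and of the 15 genes of the later list the same 12 were in the earlier one, where the share over all such genes was 73.1%. The 12 were Smc3, Stag1, Stag3, Pds5b, Smc2, Smc4, Ncapg, Ncaph, Ncapd3, Ncapg2, Smc6 and Top2b. Rec8, Espl1, Smc5 and Nsmce2 were named at P28 alone, and Wapl, Sgol1 and Ncaph2 at P28.5 alone. Condensin had 6 of 8 genes named at P28 and 7 of 8 at P28.5. Among plus-strand genes, which the lists cover far better, the P28 count was 5 of 6 for condensin, 4 of 4 for the cohesin core and 2 of 2 for SMC5/6. It was 1 of 3 for cohesin loading, release and acetylation and 1 of 3 for centromeric protection and cleavage. At P28.5 the counts in the same order were 6 of 6, 3 of 4, 1 of 2, 2 of 3 and 0 of 3. The share of all plus-strand protein-coding genes was 26.0% at P28 and 20.4% at P28.5. Neither Ctcf nor Ctcfl was named at either age.

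**Figure D1:**
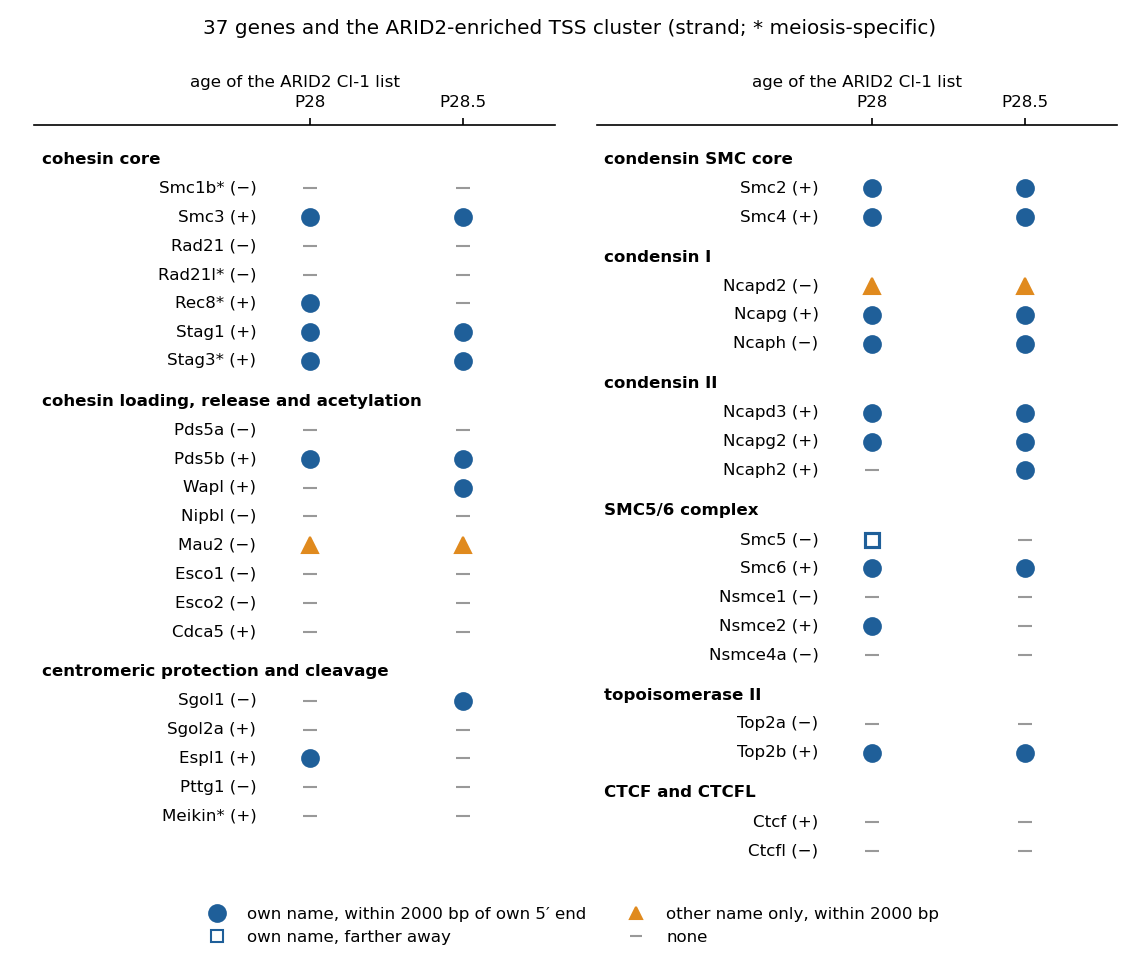
Membership of the 37 genes in the ARID2 Cl-1 list at P28 and P28.5 (columns), grouped by role, with the strand in parentheses and meiosis-specific genes starred. Filled circles mark genes listed under their own name within 2000 bp of their own 5′ end, the open square Smc5, listed farther away, triangles genes with a nearby position under another gene's name, and dashes genes with none. Circles fill most of the condensin groups, and most dashes stand beside minus-strand genes.

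These counts differed between the strands, as did those over all genes. Where a listed position equalled an end of a minus-strand transcript, that end was nearly always the lower one in genomic coordinates, which is the 3′ end. The 3′ ends of plus-strand transcripts were not counted, so there only the lower end was compared. In the P28 list 4893 lines matched the start of a plus-strand transcript and 9 that of a minus-strand one, and 1482 matched the 3′ end of the latter kind. In the P28.5 list the same 3 classes held 4361, 8 and 122 lines. The lists held 11553 and 8514 lines, and a large part of each equalled none of these ends, among them the lines of Ncaph, Sgol1 and Smc5. Among the 20 plus-strand genes of the set, 14 (70.0%) were named at P28 and 13 (65.0%) at P28.5, against 26.0% and 20.4% of all plus-strand protein-coding genes. Of the 17 minus-strand genes, 2 (11.8%) were named at each age, Ncaph and Smc5 at P28 and Ncaph and Sgol1 at P28.5, against 7.61% and 2.86%. At both ages 11 of the 20 plus-strand genes were named, against 14.8%, and at either age 16, against 31.6%. Of the 14 named at P28, these 11 were also named at P28.5, against 57.0% of all plus-strand genes named at P28. The plus-strand genes named at neither age numbered 4, namely Cdca5, Sgol2a, Meikin and Ctcf. Absence of a minus-strand gene from Cl-1 therefore carries little information, and each such gene is marked as minus-strand in what follows.

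**Figure D2:**
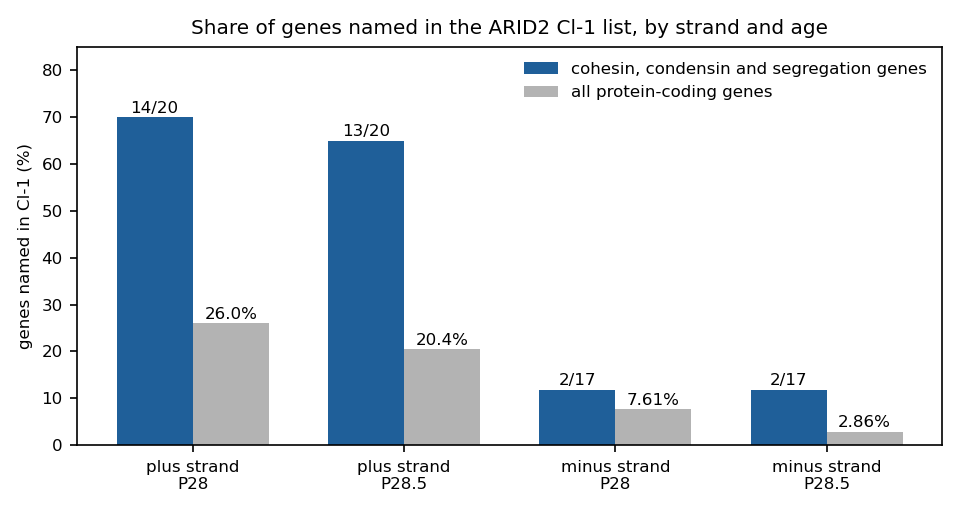
Percent of genes named in the ARID2 Cl-1 list by strand and age, for the 37 genes (blue, with the count over the number of genes) and for all protein-coding genes (grey, with the percent). The blue bars reach 70.0% and 65.0% on the plus strand and 11.8% at each age on the minus strand.

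Where a listed position lay within 2000 bp of a 5′ end was also counted, whatever gene name it carried. By this count 17 of the 37 genes (45.9%) had one at each age, against 17.3% of protein-coding genes at P28 and 14.8% at P28.5. Plus-strand genes gave 14 of 20 at P28 (25.0% of all plus-strand genes) and 13 of 20 at P28.5 (20.9%), and minus-strand genes gave 3 of 17 (9.58% of all minus-strand genes) and 4 of 17 (8.62%). Mau2 and Ncapd2, both on the minus strand, enter through the start sites of Sugp1 and Mrpl51, which lie head to head with them, and Smc5 drops out because its listed position is far from its 5′ ends. Minus-strand genes with a plus-strand 5′ end within 2000 bp numbered 6 here (Smc1b, Rad21, Mau2, Ncapd2, Ncaph and Smc5), and 3 of them had a listed position nearby at each age. Among all minus-strand protein-coding genes of this kind the share was 35.0% at P28 and 33.5% at P28.5. Of the 11 minus-strand genes without such a neighbour, 0 had a listed position nearby at P28 and 1, Sgol1, at P28.5, against 1.52% and 0.713%.

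Meiosis-specific and ubiquitous genes were compared next. Of the 5 meiosis-specific genes (Smc1b, Rad21l, Rec8, Stag3 and Meikin), 2 (40.0%) were named at P28 and 1 (20.0%) at P28.5. Of the 31 ubiquitous genes, 14 (45.2%) were named at each age. The share of all protein-coding genes was 16.8% at P28 and 11.6% at P28.5. Ctcfl, expressed in testis and counted in neither class, was not named. Smc1b and Rad21l lie on the minus strand, so the plus-strand comparison rests on 3 meiosis-specific genes, of which 2 were named at P28 and 1 at P28.5, and on 17 ubiquitous genes, of which 12 (70.6%) were named at each age. Of all plus-strand protein-coding genes, 26.0% were named at P28 and 20.4% at P28.5. A difference of 1 gene among 3 cannot separate the classes, and the lists give no finer measure.

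The meiosis-specific subunits and their somatic paralogs show how the promoters of the same complex differ in base content. The 250 bases before the RefSeq start are given below for the 4 cohesin subunits of meiosis and for Smc1a and Stag1, the ubiquitous paralogs of Smc1b and Stag3 (build GRCm38.p6, read 5′ to 3′ on the gene's strand), with CpG dinucleotides in capitals.
Smc1b (chr15:85131958-85132207, minus strand): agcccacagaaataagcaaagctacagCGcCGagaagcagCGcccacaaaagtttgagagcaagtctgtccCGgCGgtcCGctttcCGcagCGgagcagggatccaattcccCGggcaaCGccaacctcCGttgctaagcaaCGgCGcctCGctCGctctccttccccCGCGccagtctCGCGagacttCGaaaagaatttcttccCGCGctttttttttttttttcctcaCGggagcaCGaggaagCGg
Rad21l (chr2:151668534-151668783, minus strand): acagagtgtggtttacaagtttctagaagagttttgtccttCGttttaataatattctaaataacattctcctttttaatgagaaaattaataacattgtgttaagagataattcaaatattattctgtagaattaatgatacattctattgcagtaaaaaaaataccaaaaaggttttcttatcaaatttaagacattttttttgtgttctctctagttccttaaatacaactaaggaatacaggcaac
Rec8 (chr14:55617916-55618165, plus strand): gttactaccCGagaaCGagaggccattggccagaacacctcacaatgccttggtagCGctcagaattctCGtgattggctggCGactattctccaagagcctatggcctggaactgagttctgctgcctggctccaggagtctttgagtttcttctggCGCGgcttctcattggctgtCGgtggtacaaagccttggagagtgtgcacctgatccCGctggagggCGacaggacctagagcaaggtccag
Stag3 (chr5:138280259-138280508, plus strand): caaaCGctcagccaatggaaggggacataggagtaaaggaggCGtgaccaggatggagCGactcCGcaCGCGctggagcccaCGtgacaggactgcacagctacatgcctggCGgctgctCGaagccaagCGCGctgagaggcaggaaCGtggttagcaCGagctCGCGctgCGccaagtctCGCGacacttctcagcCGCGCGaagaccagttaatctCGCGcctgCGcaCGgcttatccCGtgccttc
Smc1a (chrX:152016178-152016427, plus strand): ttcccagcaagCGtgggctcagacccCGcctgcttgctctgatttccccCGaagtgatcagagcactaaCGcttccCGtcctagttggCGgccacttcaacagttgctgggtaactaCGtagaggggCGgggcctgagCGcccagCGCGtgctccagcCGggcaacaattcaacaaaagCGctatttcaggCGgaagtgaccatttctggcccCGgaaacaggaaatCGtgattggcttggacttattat
Stag1 (chr9:100643198-100643447, plus strand): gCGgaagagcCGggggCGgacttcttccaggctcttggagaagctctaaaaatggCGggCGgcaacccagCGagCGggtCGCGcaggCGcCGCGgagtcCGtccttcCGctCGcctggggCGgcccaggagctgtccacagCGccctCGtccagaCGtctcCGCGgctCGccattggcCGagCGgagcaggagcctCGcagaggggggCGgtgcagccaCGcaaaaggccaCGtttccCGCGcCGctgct
The CpG count in these windows was 25 for Smc1b, 1 for Rad21l, 10 for Rec8 and 26 for Stag3, beside 16 for Smc1a and 31 for Stag1. The Rad21l window precedes its curated inner start, where the CpG ratio (CpG observed over that expected from base content, within 500 bp) was 0.243, while its outermost start had 0.510. Whether membership in Cl-1 follows these counts cannot be judged from so few genes, of which Smc1b and Rad21l are on the poorly covered minus strand. Stag1 and Stag3 were named at both ages and Rec8 at P28. Smc1a, a plus-strand gene with more CpG than Rec8, was named at neither age, and neither were the minus-strand genes Smc1b and Rad21l. Smc1a is X-linked, and its nearest listed position was 28806008 bp away at P28 and 213146 bp at P28.5. At P28 this was also the nearest position of the X-linked gene Stag2. The absence of Smc1a at P28 therefore cannot be told apart from a lack of listed positions on that part of the X chromosome.

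Rec8 encodes the meiotic kleisin that separase cuts at the divisions. At P28 the list held 2 lines for Rec8 at position 55617995 of chromosome 14, which lies inside the window printed above, 7 bp upstream of the outermost annotated 5′ end (55618002) and 171 bp upstream of the curated start at 55618166. At P28.5 no position lay within 2000 bp, and the nearest, for Gmpr2, was 54069 bp away. Rec8 was the only cohesin core gene whose membership changed between the ages. Rad21, the kleisin of somatic cells, and Rad21l, the kleisin of early prophase, are both minus-strand genes and had their nearest listed positions at 101179 and 126050 bp at P28, and at 114112 and 1016526 bp at P28.5.

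Stag3 encodes the STAG subunit particular to meiotic cohesin complexes. Its curated start, position 138280509 of chromosome 5, was listed by 1 line at each age. Positions under the name of Gpc2, a minus-strand gene with a 5′ end 116 bp from one of Stag3, were listed as well at 138280105, 138280107 and 138280114, 28 to 37 bp from a predicted Stag3 start. Stag1, which encodes a somatic STAG subunit, was listed at both ages at positions 100643448, 100643456 and 100643623 of chromosome 9, the lowest of these equal to its curated start. Stag2, its X-linked paralog on the plus strand, was named at neither age, with its nearest listed positions at 81042712 and 56770073 bp.

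Smc3 encodes the SMC subunit that every cohesin shares, and its 5′ end at position 53600396 of chromosome 19 was listed at both ages by 1 line. Smc1b, which encodes the meiotic partner of SMC3, had its nearest listed position at 94706 bp at P28 and 94895 bp at P28.5, in each case for Fam118a. Its head-to-head neighbour Ribc2, on the plus strand with a 5′ end 103 bp away, was not named either. Smc1a, the ubiquitous paralog of Smc1b, is X-linked and on the plus strand and was named at neither age.

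Meikin encodes a germ cell kinetochore protein that protects centromeric cohesin in the first division. It is a plus-strand gene, and its nearest listed positions were 66448 bp away at P28 and 67493 bp at P28.5. Its CpG ratio at the outermost 5′ end was 0.308, and every other plus-strand gene of the set had a higher ratio at its richest 5′ end.

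Among the 8 genes for cohesin loading, release and acetylation, Pds5b was named at P28 and Pds5b and Wapl at P28.5. These shares of 12.5% and 25.0% stand against 16.8% and 11.6% of all protein-coding genes. Pds5b encodes a HEAT-repeat protein that binds the ring and regulates its release, and it was listed at both ages at positions 150673744, 150673827 and 150673852 of chromosome 5, of which 150673827 is its curated start. Its paralog Pds5a, on the minus strand, had no listed position nearer than 156242 bp. The gene for the loader subunit MAU2 had the Sugp1 positions 70042785 and 70042813 of chromosome 8 at 51 and 79 bp from its 5′ end at both ages. Nipbl, which encodes the other loader subunit, and the acetyltransferase genes Esco1 and Esco2 are minus-strand genes and were named at neither age, Esco2 having a listed position 3333 bp away at P28. Cdca5, which encodes sororin, the antagonist of WAPL, is a plus-strand gene that was named at neither age, with its nearest listed positions at 27130 and 23890 bp.

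The genes named at 1 age only have the promoters below, given in the same way for those with a RefSeq window other than Rec8, shown above. Without signal levels or replicates, a difference between the lists does not show a change in ARID2 with age.
Wapl (chr14:34673678-34673927, plus strand): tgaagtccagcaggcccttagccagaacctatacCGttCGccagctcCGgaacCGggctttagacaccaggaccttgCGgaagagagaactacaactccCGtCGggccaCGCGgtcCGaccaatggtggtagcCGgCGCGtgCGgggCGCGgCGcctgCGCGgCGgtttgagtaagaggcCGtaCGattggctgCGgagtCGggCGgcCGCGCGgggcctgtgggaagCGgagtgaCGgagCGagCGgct
Sgol1 (chr17:53689316-53689565, minus strand): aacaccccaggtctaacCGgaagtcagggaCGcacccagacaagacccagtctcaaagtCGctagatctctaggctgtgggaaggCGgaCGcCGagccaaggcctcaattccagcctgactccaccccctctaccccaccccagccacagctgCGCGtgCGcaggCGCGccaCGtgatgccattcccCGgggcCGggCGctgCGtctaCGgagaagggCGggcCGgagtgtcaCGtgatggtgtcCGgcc
Espl1 (chr15:102296043-102296292, plus strand): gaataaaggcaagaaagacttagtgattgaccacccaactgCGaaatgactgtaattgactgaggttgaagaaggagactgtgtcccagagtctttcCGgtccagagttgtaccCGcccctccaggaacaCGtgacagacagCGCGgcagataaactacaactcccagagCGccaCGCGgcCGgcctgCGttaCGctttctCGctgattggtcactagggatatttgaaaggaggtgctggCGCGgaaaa
Ncaph2 (chr15:89355469-89355718, plus strand): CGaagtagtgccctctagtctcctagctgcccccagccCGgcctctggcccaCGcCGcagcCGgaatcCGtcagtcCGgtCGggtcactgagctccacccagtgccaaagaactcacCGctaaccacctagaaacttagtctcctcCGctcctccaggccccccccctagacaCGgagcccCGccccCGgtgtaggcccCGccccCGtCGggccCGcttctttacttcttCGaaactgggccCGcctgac
Smc5 (chr19:23272600-23272849, minus strand): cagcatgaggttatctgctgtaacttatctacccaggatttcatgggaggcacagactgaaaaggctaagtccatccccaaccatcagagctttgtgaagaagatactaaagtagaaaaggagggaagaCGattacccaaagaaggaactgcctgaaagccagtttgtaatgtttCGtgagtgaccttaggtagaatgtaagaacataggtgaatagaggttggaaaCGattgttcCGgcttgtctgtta
The CpG counts were 32 for Wapl, 21 for Sgol1, 15 for Espl1, 19 for Ncaph2 and 4 for Smc5. The Smc5 window precedes its innermost curated start, where the CpG ratio within 500 bp was 0.380, while the other Smc5 starts had 0.775 and 0.783.

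Wapl encodes the factor that opens the ring and releases cohesin from chromosome arms in prophase. It was listed only at P28.5, by 1 line at position 34673793 of chromosome 14, within the printed window, and by 2 lines at its curated start, 34673928. At P28 the nearest listed position was 656094 bp away, the largest distance of any of the 37 genes at that age. Of the protein-coding genes named at 1 age only, 27.3% were named at P28.5, and among the 37 genes these were 3 of 7.

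The genes of centromeric protection and cleavage gave 1 of 5 (20.0%) at each age, against 16.8% and 11.6% of all protein-coding genes. The named gene was Espl1 at P28 and Sgol1 at P28.5. Espl1 encodes separase, the protease that cuts the kleisin. At P28 it had 4 lines at position 102296252 of chromosome 15, 2 bp upstream of an annotated 5′ end, and 1 line at its curated start, 102296293. At P28.5 no line carried its name, and the nearest position, for Mfsd5, was 16798 bp away. Sgol1 (Sgo1 in the list), a minus-strand gene, encodes a shugoshin that guards centromeric cohesin. It was listed at P28.5 by 1 line at position 53689728 of chromosome 17, 300 bp upstream of a predicted 5′ end and 413 bp upstream of the curated start, and at P28 the nearest position was 25178 bp away. Sgol2a, a plus-strand gene for the shugoshin that acts in meiosis, and Pttg1, a minus-strand gene for securin, the inhibitor of separase, were named at neither age. Their nearest positions at P28 were 117161 and 256018 bp away.

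Both SMC genes of condensin were listed at both ages. Smc2 had 2 lines at its 5′ end, position 52439221 of chromosome 4, and Smc4 had 1 line at each of 69004972, 69004976 and 69005097 of chromosome 3. In condensin I, Ncapg, which encodes a HEAT-repeat subunit, was listed at 45669872 and 45669925 of chromosome 5, the lower of these 19 bp upstream of its outermost 5′ end. Ncaph, which encodes the kleisin, was the only minus-strand gene of the set named at both ages, at position 127134045 of chromosome 2, which is 91 bp upstream of its 5′ end. Ncapd2, on the minus strand, was reached at both ages by the Mrpl51 position 125192200 of chromosome 6, 100 bp from its 5′ end. All 3 condensin I genes therefore had a listed position within 2000 bp at each age.

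In condensin II, Ncapd3 was listed at both ages at 27030175 and 27030593 of chromosome 9, and 3 lines of its head-to-head neighbour Vps26b stood at 27030117, 48 bp from a Ncapd3 start. Ncapg2 had 6 lines at 116405355 of chromosome 12 and further positions at 116405368 and 116405402. Ncaph2, the kleisin gene of condensin II, was listed only at P28.5, with 4 lines at its 5′ end, 89355719 of chromosome 15, and with the positions 89355724, 89355727 and 89355741. At P28 its nearest listed position was 211440 bp away. The kleisin gene of condensin I was thus in Cl-1 at both ages and that of condensin II at the later age.

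The SMC5/6 complex had 3 of 5 genes named at P28 and 1 at P28.5, against 16.8% and 11.6% of all protein-coding genes. By a listed position within 2000 bp, which leaves out Smc5, the counts were 2 and 1, against 17.3% and 14.8%. Smc6 was named at both ages, at 11265886, 11266112 and 11266130 of chromosome 12. Nsmce2, which encodes a SUMO ligase of the complex, was listed at P28 alone, with 2 lines at 59374198 and 3 lines at 59374231 of chromosome 15, and its nearest position at P28.5, for Sqle, was 59106 bp away. Smc5, on the minus strand, was named by 1 line at P28, at 23310866 of chromosome 19. That position was 36944 bp from its nearest 5′ end and equalled no 5′ end and no lower transcript end of this annotation. Nsmce1 and Nsmce4a, on the minus strand, were named at neither age, the latter with a nearest position at 27725 bp at both ages.

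Top2b, the topoisomerase II gene of non-dividing as well as dividing cells, was listed at its 5′ end, position 16365206 of chromosome 14, at both ages. Top2a, which encodes the isoform of dividing cells, is a minus-strand gene with its nearest listed position at 341635 bp at P28 and 214381 bp at P28.5. Ctcf, which encodes the insulator protein that halts cohesin, is on the plus strand and had its nearest listed positions, for Pard6a, at 63657 bp at P28 and 64156 bp at P28.5. For Ctcfl, its testis paralog on the minus strand, the distances were 112437 and 90647 bp.

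The listed positions lay close to annotated starts. The 19 genes named at either age had 37 positions of their own, of which 18 equalled one of their 5′ ends and 35 lay within 150 bp of one. The other two were those of Sgol1, at 300 bp, and Smc5. All 12 genes named at both ages had the same positions and the same number of lines at each age, as did 82.5% of the 1847 protein-coding genes named at both ages.

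In 5 genes the annotated starts could be compared within the gene. Stag1, Stag3, Pds5b, Smc4 and Ncapd3 each have annotated 5′ ends both near to and more than 2000 bp from their own listed positions. The 16 near ends had a CpG ratio of 0.754 to 1.01, with a median of 0.859, and the 11 farther ends had a ratio of 0.052 to 0.4, with a median of 0.265. These ranges did not overlap, but several near ends lie so close together that they share most of their window. Over all 18 genes with an own listed position within 2000 bp, the 47 near ends ranged from 0.027 to 1.01, with a median of 0.82. That range overlaps the one of the farther ends. Among its low values were a Wapl end at 1414 bp (0.027), a Sgol1 end at 1603 bp (0.093) and a Rec8 end at 7 bp (0.474). Most of the farther ends are predicted transcripts, and whether they were among the TSSs that the authors clustered is not known.

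**Figure D3:**
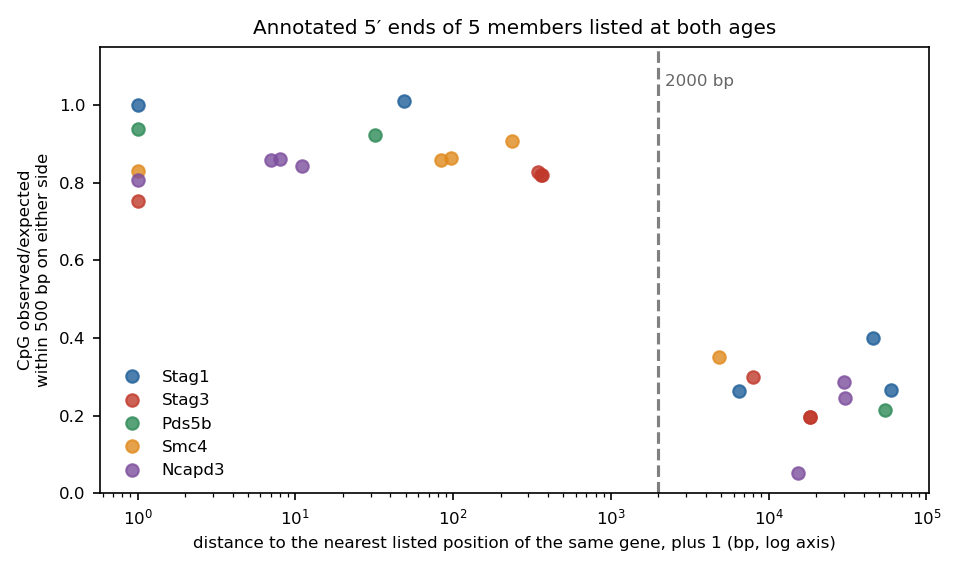
CpG ratio within 500 bp of each annotated 5′ end (vertical axis) against the distance from that end to the nearest listed position of the same gene, plus 1 bp on a log axis, for the 5 genes named at both ages that have ends on both sides of 2000 bp (dashed line). Each point is 1 annotated 5′ end, and all 16 ends left of the line lie above 0.75 while all 11 to the right lie at or below 0.4.

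The share of genes in Cl-1 also varied with CpG content. The median CpG ratio at the outermost 5′ end was 0.758 for the 37 genes and 0.516 for all protein-coding genes. Among plus-strand protein-coding genes sorted into 5 quintiles of this ratio, the share named in the P28 list was 8.55%, 13.9%, 21.4%, 39.5% and 46.3% from the lowest quintile to the highest. For the P28.5 list these shares were 3.49%, 5.47%, 12.1%, 33.2% and 47.1%. In the top quintile 11 of the 20 plus-strand genes were found, and 9 of them (81.8%) were named at each age. The other two were Cdca5, with a ratio of 0.902, and Ctcf, with 0.949, so a CpG-rich plus-strand promoter was not always in Cl-1. Among plus-strand genes outside the top quintile, Rec8 (0.474), Espl1 (0.682) and Nsmce2 (0.695) were named at P28 alone and Ncaph2 (0.729) at P28.5 alone. Stag1, Stag3 and Wapl, also outside it and named, had low ratios at the outermost end, which is a predicted start. At their richest end the ratios were 1.01, 0.828 and 0.908.

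**Figure D4:**
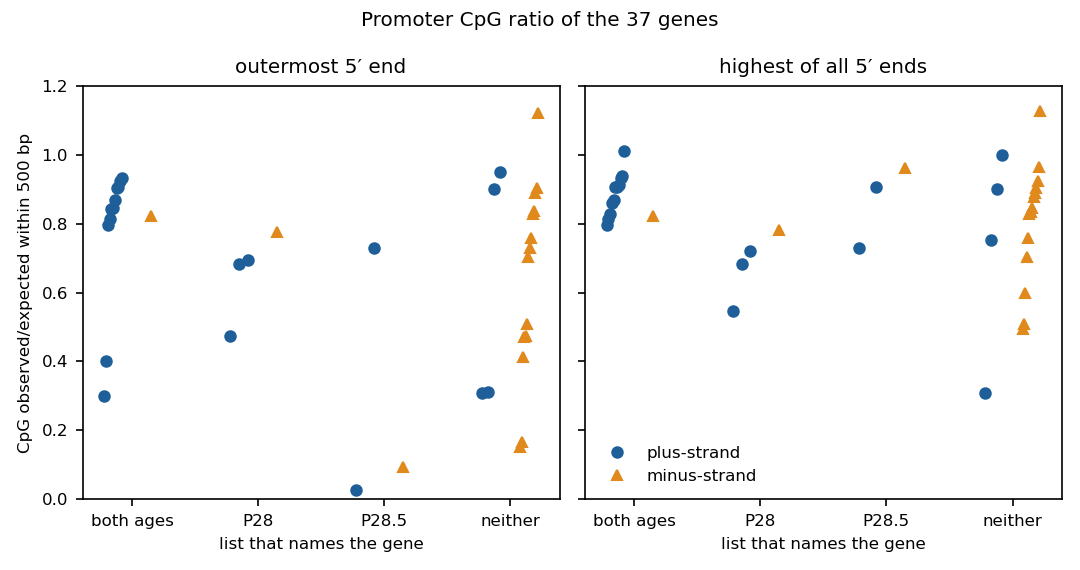
CpG ratio within 500 bp of a 5′ end for each of the 37 genes (points), by the list that names the gene (horizontal axis) and by strand (blue circles plus, orange triangles minus), at the outermost 5′ end (left) and at the end with the highest ratio (right). At the outermost end Stag1, Stag3 and Wapl lie at or below 0.4, and at the richest end they lie above 0.8, while minus-strand genes named at neither age span the range in both panels.

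Sequence motifs were counted in the RefSeq promoter windows of 300 bases, from 250 before to 50 after the start, on both strands. A window was found for 29 of the 37 genes, which had 33 windows, with a median of 24 CpG per window against 13 for all protein-coding windows. Rad21, Nipbl, Esco1, Esco2, Meikin, Smc4, Nsmce2 and Ctcfl had none. The E2F-type motif TTCCCGC, read by factors that drive cell cycle genes, was in 8 windows (24.2%), against 5.95% of all windows, and these belonged to Sgol2a, Ncapg, Pds5a, Stag3, Nsmce1, Stag1, Ncapg2 and Smc1b. Of these 8 genes, 4 were named in Cl-1 at both ages (Ncapg, Stag3, Stag1 and Ncapg2) and 4 at neither, of which Pds5a, Nsmce1 and Smc1b are minus-strand genes and Sgol2a is a plus-strand gene. The motif TTTGAA, of the CHR type found in genes of late cell cycle, was in 12 windows (36.4%, against 16.0%). CCAAT was in 18 (54.5%, against 38.2%) and the GC box GGGCGG in 21 (63.6%, against 46.2%).

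The remaining motifs were rare. The cAMP response element TGACGTCA was in 2 windows (6.06%, against 2.23%), those of Ncaph and Ncaph2, and its shorter form TGACGT, which lies within it, was in 3 (9.09%, against 8.49%). GGCAGTT, a MYB-type motif, was in 3 windows (9.09%, against 3.94%), those of Sgol2a, Ncapd3 and Smc5, and TATAAA was in 2 (6.06%, against 12.6%). The NRF1 motif and the short CTCF motif CCACNAGG were in 0 windows, against 1.33% and 5.06% of all windows. Such a match is a description of the letters in the window and not a bound site.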

How the data were processed

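ARID2 CUT&RUN was measured in 2 libraries at each age. Per the labels and the study's methods, the authors aligned reads to mm10 with Bowtie2, filtered alignments with SAMtools, made coverage tracks with deepTools as log2 ratios to the control without primary antibody, averaged replicates and clustered RefSeq TSSs by k-means. The deposited lists hold the TSSs of cluster 1 at P28 and P28.5 as genomic positions with gene symbols, without strand, counts or signal, so they give no depth or interval and allow no test. The RefSeq release is not given in the sources used here. Neither the BRG1 libraries nor any coverage track was used here.

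The deposited positions were matched without a shift to the ends of 119253 RefSeq transcripts (49598 genes) annotated on GRCm38.p6, which mm10 represents. A gene was named when a line carried its symbol or a synonym belonging to 1 gene. The background was the share of 21774 protein-coding genes called by the same rule. CpG ratios were computed within 500 bp on either side of a 5′ end. Promoter windows came from RefSeq. All 37 genes are accounted for, with positions for those listed or within 2000 bp of a listed position, and sequences for meiosis-specific genes, their paralogs and genes whose listing differed between the ages. The genes, lists and motifs were chosen with earlier results of these data known. Alternatives were other backgrounds, matching distances and CpG windows. The distance and CpG functions were checked on simulated positions and sequences. Python 3.11.15, numpy 2.4.6, pandas 2.3.3 and matplotlib 3.10.9 were used.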

Additional observations from a re-analysis of the deposited data

How the results depend on the processing

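The lists carry no values per library, so neither depth nor replicate spread can be read from them. No paired analysis was possible because each list was made from averaged replicates, and for the same reason no replicate could be left out. Over the other ways of matching, the genes counted among the 37 ranged from 15 to 17 at P28, from 14 to 17 at P28.5 and from 12 to 14 at both ages, and among the 20 on the plus strand they were 14, 13 and 11. The share of all genes named at P28 was 8.23% of all annotated genes and 26.0% of plus-strand protein-coding genes. At P28.5 it was 5.45% and 20.4%, and 14.8% of protein-coding genes by a listed position within 2000 bp. Counted in the cohesin core alone, 2 of 3 ubiquitous genes were named at each age. The median CpG ratio of the 37 genes was 0.879 within 250 bp of the end and 0.845 at the richest end. For all protein-coding genes these medians were 0.536 and 0.617. The other 26 alternatives moved a count by at most 1.5 times or left a share inside its 95% binomial interval.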

Other observations

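Genes that work beside these complexes were looked up in the same lists. Of 11 other cohesin and SMC5/6 genes, 2 were named at P28 and 1 at P28.5, where 16.8% and 11.6% of all protein-coding genes were named. Slf2, which encodes a factor that brings SMC5/6 to DNA, was named at both ages with 6 lines, and Nsmce3 was named at P28 by a position 116944 bp from its 5′ end. Smc1a and Stag2, both on the X chromosome, were among the 11 and were not named. By a listed position of any name within 2000 bp, the count for the 11 genes was 2 at P28 (18.2%, against 17.3%) and 4 at P28.5 (36.4%, against 14.8%). The minus-strand gene Chtf18, for a subunit of an alternative clamp loader in cohesion, had one 269 bp away at both ages, and at P28.5 Slf1 had one at 23 bp and Chtf8 at 47 bp, both also minus-strand. Of 8 centromeric kinase and passenger genes, 1 (12.5%) was named at each age, against 16.8% and 11.6%. Aurkb, for a kinase of the chromosome passenger complex, was named at P28, and Birc5, which encodes its partner survivin, at P28.5. Cdca8, which encodes borealin of the same complex, had a listed position 70 bp from its 5′ end at both ages under another name. By such nearby positions the count was 2 of 8 (25.0%) at each age, against 17.3% and 14.8%. The plus-strand genes Plk1 and Aurkc were named at neither age, with nearest listed positions 71391 and 372970 bp away at P28. For P28 the paper nevertheless reports ARID2 and BRG1 enrichment near the Plk1 promoter. By peak calling, a separate method, it reports ARID2 peaks there and at the Aurkc and Aurkb promoters. Absence from Cl-1 therefore does not mean that ARID2 was absent from these promoters.

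Of 10 synaptonemal complex and axis genes, 2 (20.0%, against 16.8% of all protein-coding genes) were named at P28 and 3 (30.0%, against 11.6%) at P28.5, and by a nearby position the counts were 1 and 3. Sycp3, the axial element gene, was named at both ages, Sycp2 at P28, with no listed position nearer than 3430 bp to its 5′ ends, and Syce2 and Hormad1 at P28.5. Of 5 genes that attach telomeres to the nuclear envelope, 1 (20.0%) was named at each age, against 16.8% and 11.6% of all protein-coding genes. This was Sun1, which encodes the envelope protein that anchors them, with 22 lines at 12 positions at both ages.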
